A study of Mus musculus with 3 samples.

Results

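The 10 genes described here encode the subunits of the mTOR complexes and the TSC-Rheb switch that sits above them: Mtor, Rptor, Rictor, Mlst8, Deptor, Akt1s1, Mapkap1, Tsc1, Tsc2 and Rheb. They were chosen by symbol from the 23238 gene symbols of the count files, and all 10 were listed in each file and passed a limit on level, a CPM (counts scaled to a common library size) of at least 1 in any library, as did 13169 genes in all. The cells were c2c12, an immortalized mouse myoblast line able to fuse into myotubes, and their RNA was taken after 2 days in myogenic induction medium. The control substrates were a tissue culture plate (TCP) and a hydrogel of 15% methacrylated gelatin (GelMA), and the third substrate, GelMA-PSS, was the same hydrogel mixed with 1% poly(sodium 4-styrenesulfonate), a sulfonated polymer that mimics heparin. The study compared GelMA-PSS with both controls to find which pathways differ in cells on the charged substrate.

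A single library was made per substrate, so the differences below cannot be held against replicates and come without p-values. The difference between GelMA and TCP is the only measure of how far cultures on different substrates without PSS can lie apart. The GelMA library was the shallowest, with 87071144 counts, followed by TCP with 119799095, and GelMA-PSS was the deepest, with 192171443. At these depths the least abundant of the 10 genes still had 2296 counts in its lowest library. The intervals given with ratios are 95% intervals for counting error alone and say nothing about the spread between cultures.

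The mTOR kinase works in 2 protein complexes. In mTORC1 it is joined by Raptor (gene Rptor), and this complex promotes protein synthesis and growth when amino acids and growth factors are present. In mTORC2 it is joined by Rictor and Sin1 (gene Mapkap1), and this complex phosphorylates kinases such as Akt. The TSC1 and TSC2 proteins switch off the small GTPase Rheb, which in its GTP-bound form activates mTORC1. In skeletal muscle the pathway is known for its part in fibre growth and in the differentiation of myoblasts. The libraries measure RNA, and neither complex assembly nor kinase activity can be read from them.

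The promoter sequences of Mtor and Tsc1 are shown because the counts of these genes kept nearly the same ratio in all 3 libraries, as described further down. Each window holds the 250 bases before the start in RefSeq on GRCm38.p6, read 5′ to 3′ on the plus strand, for Mtor at chr4:148448332-148448581 and for Tsc1 at chr2:28640983-28641232. Capitals mark matches to any of the 8 motifs searched.
Mtor: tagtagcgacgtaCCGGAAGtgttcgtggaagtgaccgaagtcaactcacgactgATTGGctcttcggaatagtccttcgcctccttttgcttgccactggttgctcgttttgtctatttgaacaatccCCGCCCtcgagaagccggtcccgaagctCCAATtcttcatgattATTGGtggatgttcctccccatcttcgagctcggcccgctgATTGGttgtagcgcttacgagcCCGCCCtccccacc
Tsc1: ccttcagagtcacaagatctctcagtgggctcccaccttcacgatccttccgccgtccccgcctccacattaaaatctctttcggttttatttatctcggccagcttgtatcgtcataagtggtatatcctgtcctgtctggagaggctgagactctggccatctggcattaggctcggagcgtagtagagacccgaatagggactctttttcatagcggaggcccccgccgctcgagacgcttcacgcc

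The motifs, searched on both strands, were the E-boxes CAGCTG, bound by myogenic factors such as MyoD, and CACGTG, the CCAAT box, the GC box GGGCGG, the NRF1 site, the ETS site CCGGAAG, the cyclic AMP response element TGACGTCA and the TATA box TATAAA. The Mtor window held CCGGAAG at position -237, CCAAT at -195, -93, -77 and -36, and GGGCGG at -121 and -14, counted back from the RefSeq start. The Tsc1 window held none of the 8, while its GC content was 54.4%, the same as that of the Mtor window. The windows of this pair thus differed in their matches.

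Promoter windows were found for 9 of the 10 genes, with 2 windows for Mapkap1 and no entry for Deptor. CAGCTG occurred in 13.0% of 32817 promoter windows and in none of these 9 genes. CACGTG occurred in 6.02% of windows and, among the genes described, in Rheb, whose RefSeq start lies inside the longer transcript of the GENCODE annotation. CCGGAAG occurred in 6.90% of windows and in Mtor, Akt1s1, Mapkap1 and Tsc2. The Akt1s1 window, at chr7:44850122-44850371, lies inside the gene as GENCODE places it, with a start at 44848991. GGGCGG occurred in 32.7% of windows and in 5 of the genes, and CCAAT in 33.8% and in Mtor and Rictor, where it shared bases with a GC box. The NRF1 site, the cyclic AMP response element and the TATA box occurred in 3.73%, 1.55% and 12.4% of windows and in none of the 9 genes.

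The kinase gene Mtor had 13961 counts on TCP, 11135 on GelMA and 12544 on GelMA-PSS. Scaled to library size with TMM factors, these were CPM of 115, 123 and 69.2. The GelMA-PSS library lay below both controls, at 0.565 of the GelMA level (0.551 to 0.580) and 0.604 of the TCP level (0.590 to 0.619), while GelMA stood at 1.07 of TCP. The gene spans chr4:148448611-148557683 on the plus strand of GRCm38, and its transcript of 8564 bases has 58 exons.

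Of the subunits that define mTORC1, Rptor, which recruits substrates to the kinase, had CPM of 133, 129 and 80.0 on TCP, GelMA and GelMA-PSS. The controls nearly coincided and GelMA-PSS was lower, at 0.620 of GelMA (0.605 to 0.635) and 0.603 of TCP (0.589 to 0.616). Akt1s1 encodes PRAS40, an inhibitor of mTORC1 that is released when Akt phosphorylates it, and had CPM of 62.0, 54.1 and 52.5. Its GelMA-PSS level was 0.970 of GelMA with an interval from 0.937 to 1.00, and 0.847 of TCP (0.821 to 0.873). GelMA itself stood at 0.873 of TCP, so the controls lay further from each other than GelMA-PSS lay from GelMA.

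The subunits that define mTORC2 also parted. Rictor, the scaffold of this complex, had CPM of 40.3 on TCP, 52.1 on GelMA and 26.3 on GelMA-PSS. It was lowest on GelMA-PSS, at 0.506 of GelMA (0.486 to 0.527) and 0.654 of TCP (0.629 to 0.681), and had the widest gap between the controls among the 10 genes, with GelMA at 1.29 of TCP (1.24 to 1.35). Mapkap1, whose product Sin1 helps the complex to bind its substrates, had CPM of 70.3, 63.0 and 64.6, so GelMA-PSS lay between the controls. Its ratio to GelMA was 1.03 (0.993 to 1.06) and its ratio to TCP 0.918 (0.893 to 0.944).

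Mlst8 and Deptor belong to both complexes. Mlst8, which binds next to the kinase domain, had CPM of 24.3 on TCP, 25.3 on GelMA and 24.3 on GelMA-PSS, and the ratio of GelMA-PSS was 0.962 to GelMA (0.914 to 1.01) and 0.998 to TCP (0.952 to 1.05). Both intervals include 1, so a difference from either control was not detectable for Mlst8 even by counting error alone. Deptor, which encodes an inhibitor of the kinase, had CPM of 171, 158 and 77.7. It had the lowest ratios of the 10 genes, 0.491 to GelMA (0.479 to 0.502) and 0.454 to TCP (0.445 to 0.464). Among all 13169 genes its log2 ratio stood at percentile 2.19 against GelMA and 1.98 against TCP.

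Upstream of mTORC1, Tsc1, which stabilizes its partner TSC2, had CPM of 38.4 on TCP, 40.6 on GelMA and 23.1 on GelMA-PSS. Tsc2, which encodes the GTPase activating protein for Rheb, had CPM of 141, 135 and 94.1. Both were lower on GelMA-PSS, Tsc1 at 0.569 of GelMA (0.544 to 0.594) and 0.601 of TCP (0.576 to 0.627), and Tsc2 at 0.699 (0.682 to 0.715) and 0.669 (0.655 to 0.684). Rheb, the GTPase that these proteins hold in check, had CPM of 90.9, 79.4 and 121. With this scaling it was the single gene of the 10 with its highest level on GelMA-PSS, at 1.53 of GelMA (1.49 to 1.57) and 1.33 of TCP (1.30 to 1.36), while GelMA stood at 0.873 of TCP (0.848 to 0.900).

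**Figure D1:**
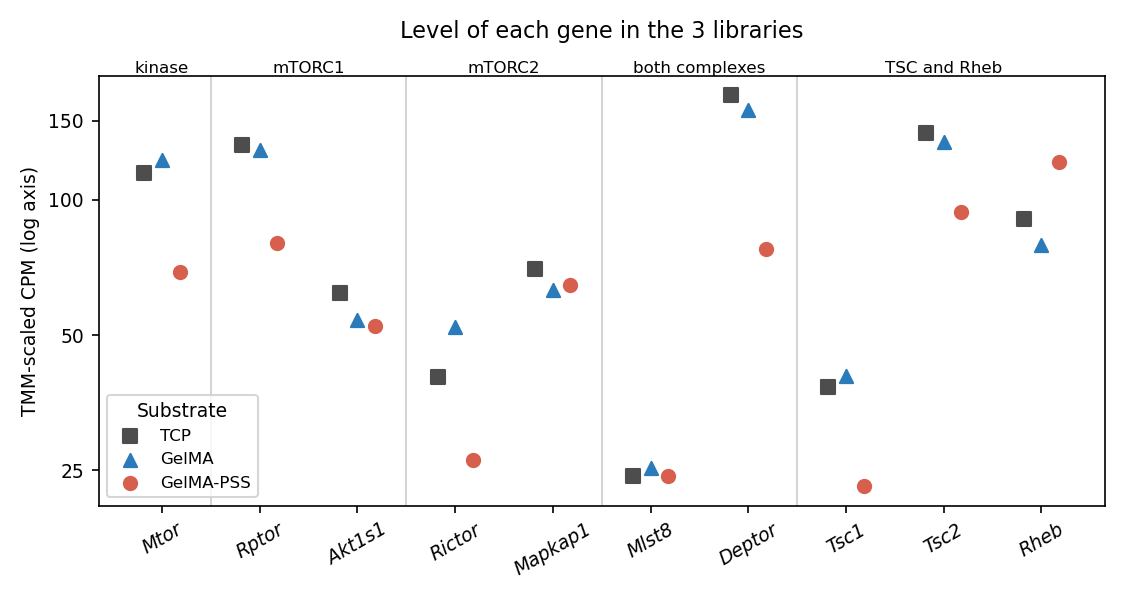
TMM-scaled CPM (log axis) of each gene in the TCP, GelMA and GelMA-PSS libraries, 1 point per library, ordered by role. GelMA-PSS lies below both controls by more than the gap between them for Mtor, Rptor, Rictor, Deptor, Tsc1 and Tsc2, at 23.1 to 94.1 CPM, and the highest for Rheb, at 121 (with TPM, Rheb was level with TCP).

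Set against both controls, 8 of the 10 genes were lower on GelMA-PSS and 1, Rheb, was higher, where 39.3% and 45.3% of all genes tested were lower and higher. The lower genes include Mlst8, whose counting intervals held a ratio of 1 against both controls, and Akt1s1, whose interval held it against GelMA. Asking in addition that the distance to the nearer control exceed the distance between the controls left 6 lower genes, Mtor, Rptor, Rictor, Deptor, Tsc1 and Tsc2, and Rheb as the higher gene, beside 26.4% and 31.7% of all genes. By more than 1.5-fold against both controls, 5 genes were lower (Mtor, Rptor, Rictor, Deptor and Tsc1) and 0 higher, beside 7.18% and 8.08% of all genes. By more than 2-fold, Deptor alone was lower and 0 were higher, beside 1.16% and 1.37%.

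On the scale of log2(CPM + 1), the median difference of the 10 genes between GelMA-PSS and the mean of the controls was -0.62, with a range from -1.07 to 0.51, where the median over all genes tested was 0.03. Between the controls, GelMA against TCP, the medians were -0.05 for the 10 genes and -0.01 for all genes. The comparisons with GelMA and with TCP share the GelMA-PSS library, and a fault of that library would enter both. The balance of all genes depended on the scaling. Scaling by total counts gave 49.4% of all genes lower and 35.4% higher than both controls, and TPM gave 72.0% and 15.5%, with the median of all genes moved to -0.08 and -0.34. Relative to these medians, the median of the 10 genes was -0.65 with TMM factors, -0.67 with total counts and -0.67 with TPM. Under TPM, Rheb no longer lay above both controls, with log2 differences of 0.14 against GelMA and -0.0023 against TCP, although it remained 0.41 above the median of all genes when set against their mean.

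The ratios of the 10 genes followed the length of their transcripts, which differ greatly. The 6 transcripts of 5598 to 9312 bases (Tsc2, Rptor, Tsc1, Deptor, Mtor and Rictor) had log2 differences from -1.02 to -0.51 against GelMA and from -1.13 to -0.57 against TCP. The 4 transcripts of 1784 to 3855 bases (Rheb, Akt1s1, Mapkap1 and Mlst8) had differences from -0.05 to 0.60 and from -0.24 to 0.41. With the limit between long and short set at 5000 bases, these groups of genes did not overlap in either comparison. The same split was not made over all genes, so how far it parts genes in general is not known. Among all genes with a known length the log2 ratio also fell with length (Spearman's rho of -0.66 against GelMA and -0.50 against TCP). The parting by length can therefore not be taken as particular to the 10 genes.

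Across the 10 genes, transcript length and the log2 ratio had a Spearman's rho of -0.95 with GelMA as control, -0.77 with TCP as control, and 0.84 for the ratio between the controls. Across 13067 genes with a known length it was -0.66, -0.50 and 0.21. These are correlations across genes of the same libraries, which are not independent replicates, and all points of a comparison share its scaling and its libraries. In each comparison, that between the controls included, the rho over all genes had the same sign as in the 10 genes and was smaller in size. The source of these slopes was not tested.

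**Figure D2:**
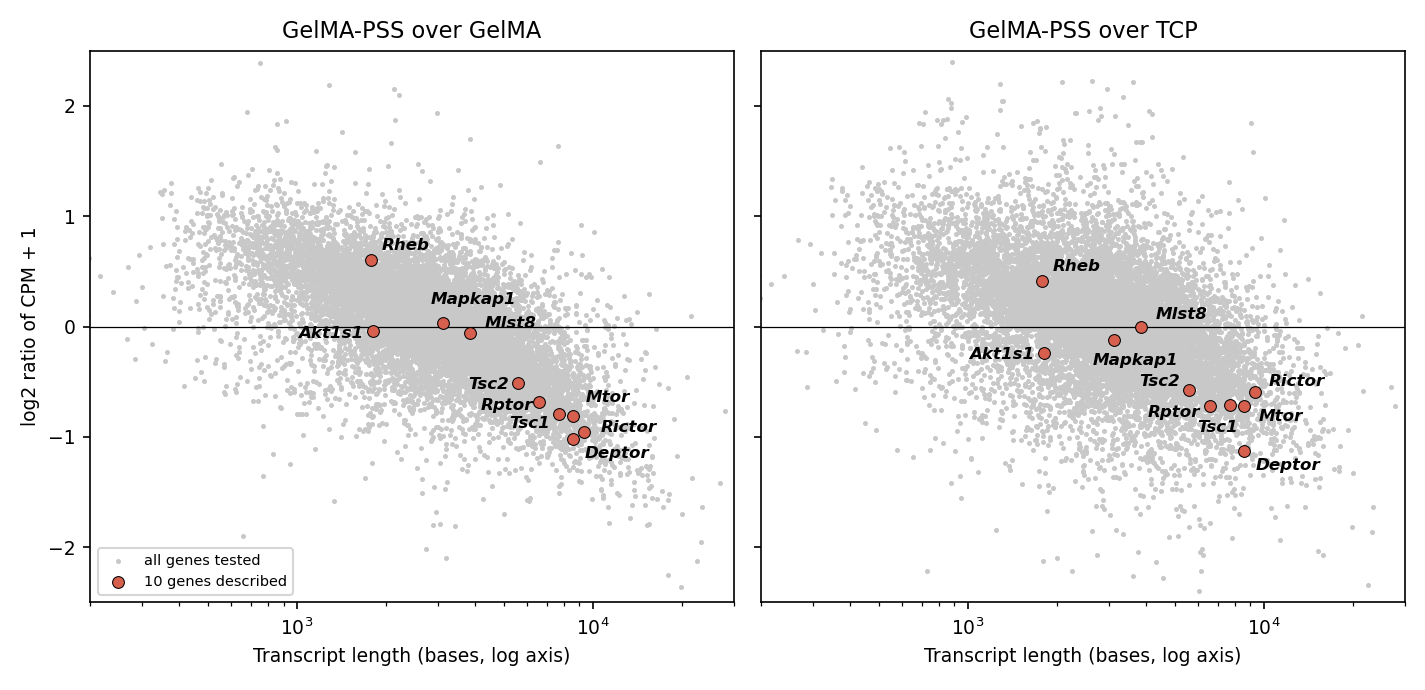
Log2 ratio of CPM + 1 in GelMA-PSS against transcript length in bases (log axis), against GelMA on the left and TCP on the right, with grey points for all genes tested and red points for the 10 genes. The 10 genes lie along the downward slope of the grey cloud, from Rheb at 1784 bases to Rictor at 9312, and 126 and 134 of the 13067 genes fall outside the axes.

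After each log2 ratio was corrected for transcript length and GC content by loess fits over all genes, the median of the 10 genes against the mean of the controls was -0.20, where that of all genes was 0.00. For Mtor the difference against GelMA went from -0.81 to -0.08 and against TCP from -0.72 to -0.19. For Rptor it went from -0.68 to -0.13 and from -0.72 to -0.31, and for Tsc1 from -0.79 to -0.18 and from -0.71 to -0.27. The corrected values of these genes were thus a fraction of the measured ones. For Mtor the corrected value against GelMA was close to the corrected difference between the controls, -0.05, while that against TCP, -0.19, was larger in size. Each comparison was corrected by its own fit, so the corrected values of a gene need not add up.

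Deptor kept the lowest corrected values, -0.43 against GelMA and -0.72 against TCP, beside a corrected difference of -0.24 between the controls. Its transcript of 8547 bases has 1227 coding bases, and with coding length in the correction its values were -1.14 and -1.21, lower than both controls by more than 2-fold, as were 0.65% of all genes, so the size of the corrected difference of Deptor depended on which length was used. With transcript length, its corrected difference from the mean of the controls stood at percentile 7.10 of all genes. Rictor went to -0.33 and -0.16, with a corrected difference of 0.23 between GelMA and TCP, and Tsc2 to -0.10 and -0.26. Akt1s1, with a short and GC-rich transcript (1812 bases, 61.8% GC), moved the other way, from -0.04 to -0.16 against GelMA and from -0.24 to -0.30 against TCP. Rheb remained above both controls at 0.28 and 0.17, where its measured values were 0.60 and 0.41, and its corrected difference from their mean stood at percentile 76.6.

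After correction 8 genes were lower and 2 higher than both controls, beside 40.7% and 40.9% of all genes. The 8 lower genes then included Mapkap1, with -0.01 against GelMA and -0.14 against TCP, and Mlst8 changed sign, to 0.10 and 0.13. The transcript chosen for Mlst8 has 3855 bases, of which 978 are coding, so its correction and its level per length rest on a long stretch outside the coding part. With coding length in place of transcript length, 6 genes were lower and 1, Rheb, was higher than both controls, beside 39.5% and 42.1% of all genes. Mapkap1, Mtor and Tsc2 then lay between the controls, Mtor with 0.0068 against GelMA and -0.09 against TCP, and Tsc2 with 0.10 and -0.09. Mlst8 was lower again, at -0.23 and -0.14, and Tsc1 was at -0.44 and -0.43.

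**Figure D3:**
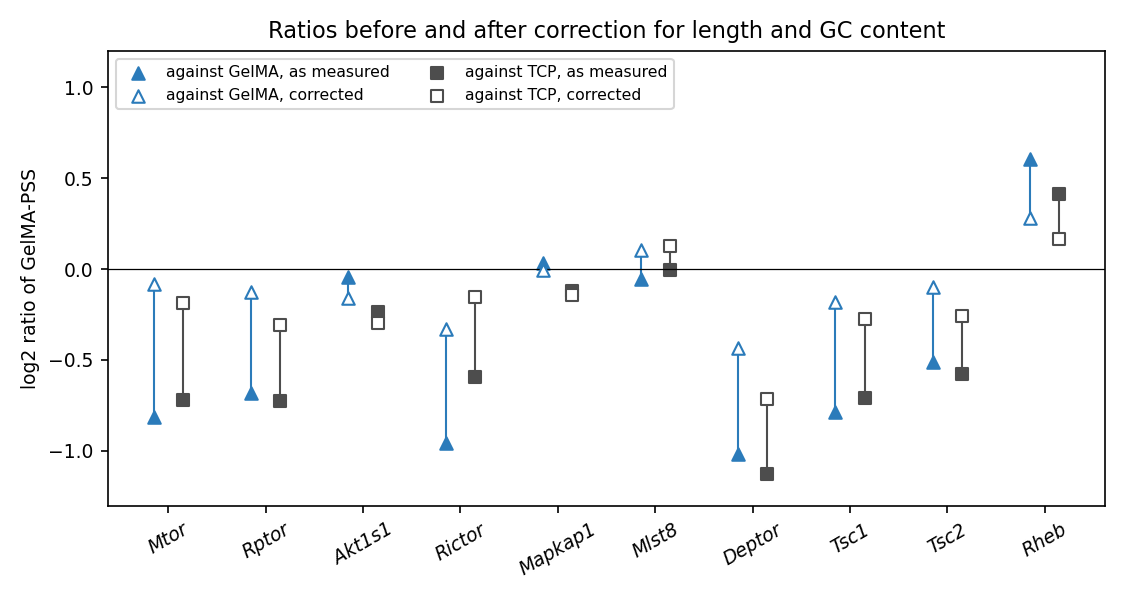
Log2 ratio of GelMA-PSS for each gene against GelMA (triangles) and TCP (squares), as measured (filled) and after correction for transcript length and GC content (open), with a line joining each pair. The values of Mtor, Rptor, Rictor, Tsc1 and Tsc2 move to between -0.33 and -0.08, Deptor stays lowest at -0.43 and -0.72, and Rheb stays above 0 at the TMM scaling shown.

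Ratios between genes within a library do not depend on the scaling. Deptor and Mtor have whole transcripts of like length, with 8547 and 8564 bases, but 1227 and 7647 coding bases, and the corrections with transcript and with coding length place this pair differently, as given above. Deptor had 1.49 counts per count of Mtor on TCP (1.46 to 1.52), 1.29 on GelMA (1.26 to 1.32) and 1.12 on GelMA-PSS (1.10 to 1.15). Deptor was thus lowest relative to Mtor on GelMA-PSS, but the step from TCP to GelMA was as large as the step from GelMA to GelMA-PSS. The GC content of the pair differs, at 44.3% for Deptor and 54.2% for Mtor.

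Rheb and Akt1s1 form a pair of short transcripts, with 1784 and 1812 bases, of which 552 and 984 are coding. Rheb had 1.47 counts per count of Akt1s1 on TCP (1.42 to 1.51), 1.47 on GelMA (1.41 to 1.52) and 2.31 on GelMA-PSS (2.25 to 2.36). Here the controls coincided and GelMA-PSS stood apart by a factor of 1.57. The GC content of this pair also differs, at 47.1% for Rheb and 61.8% for Akt1s1.

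Tsc1 and Mtor, with 7702 and 8564 bases, of which 3483 and 7647 are coding, kept nearly the same ratio. Tsc1 had 0.335 counts per count of Mtor on TCP (0.324 to 0.346), 0.331 on GelMA (0.319 to 0.344) and 0.333 on GelMA-PSS (0.322 to 0.345), so that the intervals of all 3 libraries overlapped. Rptor per count of Mtor was 1.16, 1.05 and 1.16, and Rictor per count of Mtor was 0.351, 0.425 and 0.380, both with GelMA farthest from TCP and GelMA-PSS between or beside them.

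The balance between the complexes and between the switch and its inhibitors can be put in the same way. Rptor per count of Rictor, the scaffolds of mTORC1 and mTORC2, was 3.30 on TCP, 2.48 on GelMA and 3.04 on GelMA-PSS, so GelMA-PSS lay between the controls. Tsc1 per count of Tsc2 was 0.273, 0.301 and 0.245. Rheb per count of Tsc2 was 0.647 on TCP (0.631 to 0.662), 0.589 on GelMA (0.572 to 0.607) and 1.29 on GelMA-PSS (1.26 to 1.31), and Rheb per count of Tsc1 was 2.37, 1.96 and 5.25. GelMA-PSS stood far above both controls in both ratios of Rheb, but these pairs set a transcript of 1784 bases against transcripts of 5598 and 7702 bases.

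Within each complex the subunits with short transcripts also gained on those with long ones. Mlst8 per count of Mtor was 0.212 on TCP, 0.206 on GelMA and 0.351 on GelMA-PSS. Akt1s1 per count of Rptor was 0.467, 0.420 and 0.656, and Mapkap1 per count of Rictor was 1.75, 1.21 and 2.45. In all 3 pairs GelMA-PSS was above both controls, and in all 3 the first gene has the shorter transcript.

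Per length of transcript, in CPM per kb, Rheb had the highest level of the 10 genes in each library, with 51.0 on TCP, 44.5 on GelMA and 67.9 on GelMA-PSS. Akt1s1 followed in each library, with 34.2, 29.9 and 29.0. Tsc2 (25.1, 24.1 and 16.8) came before Mapkap1 (22.6, 20.2 and 20.8) on the controls and after it on GelMA-PSS. Rptor came next, with 20.1, 19.6 and 12.1, and then Deptor, with 20.0, 18.5 and 9.09, the levels of these neighbours being nearly equal on TCP.

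Mtor itself was lower per length than both of its defining mTORC1 partners, with 13.4, 14.3 and 8.09 CPM per kb. Mlst8 had 6.32, 6.55 and 6.30, with the limit on its transcript length given above. Tsc1 (4.99, 5.27 and 3.00) and Rictor (4.32, 5.59 and 2.83) had the lowest levels, and exchanged places between TCP and GelMA. With 1 library per substrate the spread over cultures is not known, so none of these neighbours can be called different.

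Some exons of 5 of the genes overlap a listed gene on the opposite strand, and the sources used here do not state whether strand was used in the counting. Tsc2 shares 693 exonic bases with Pkd1, which had CPM of 189 on TCP, 222 on GelMA and 89.4 on GelMA-PSS, and Mlst8 shares 997 with Bricd5, at 7.98, 7.55 and 7.23. The overlaps of Deptor with Gm9920 (303 bases), Akt1s1 with Tbc1d17 (89) and Rptor with Rptoros (84) are shorter. Reads from such pairs may have been split or shared, and the values of Tsc2 and Mlst8 are uncertain to that extent. Part of Deptor also has a processed pseudogene, Gm11902, with 93.3% identity over 270 bases, which is not among the symbols of the count files.

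Among 8764 genes with CPM of 10 or more in every library, the profiles most like that of Mtor over the 3 libraries belonged to Arid1b, Pcnxl3 and Fam208b. Likeness was measured as the distance between log2(CPM + 1) values centred on their own mean, which was 0.0074 for Arid1b (CPM of 50.9 on TCP, 54.3 on GelMA and 30.3 on GelMA-PSS), 0.010 for Pcnxl3 (85.7, 92.0 and 52.2) and 0.018 for Fam208b (33.4, 35.1 and 19.9). Their transcripts have 7309, 7264 and 8338 bases. Within a distance of 0.1 there were 143 genes, among them Tsc1 as the 1 gene of the complexes and the switch, and their median transcript length was 7391 bases, where that of all genes tested was 2914.

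The rest of the pathway was described with 5 hand-written lists of 73 genes, 69 of which passed the limit on level. Of these, 36 were lower and 26 higher than both controls and 7 lay between them, where 39.3% and 45.3% of all genes tested were lower and higher. The 69 genes had a median log2 difference of -0.15 from the mean of the controls, where all genes had 0.03. After correction for length and GC content 34 were lower and 23 higher, beside 40.7% and 40.9% of all genes, and the median was -0.04. With total counts 43 were lower and 20 higher, beside 49.4% and 35.4% of all genes. With TPM 53 were lower and 8 higher, beside 72.0% and 15.5%. The count of higher genes thus depended on the scaling, and which of those named below stayed higher with TPM is not given. The 69 genes lay closer to all genes than the 10 genes of the complexes did, on the measured and on the corrected scale.

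The list of other core genes holds further subunits, assembly factors and a paralog of Rheb, and 4 of its 6 tested genes were lower and 2 higher. Tbc1d7, the third subunit of the TSC complex, had CPM of 17.6 on TCP, 16.7 on GelMA and 24.1 on GelMA-PSS, and the Rheb paralog Rhebl1 had 5.02, 4.19 and 6.40, so both were higher on GelMA-PSS. Prr5, a subunit of mTORC2, had 11.8, 12.9 and 8.82, and Tti1, a factor in the assembly of PIK-related kinases, had 22.6, 24.8 and 19.7. Tbc1d7 thus lay on the other side of the controls from Tsc1 and Tsc2 at this scaling. Its transcript has 1246 bases, against 7702 for Tsc1 and 5598 for Tsc2. After the correction, Tbc1d7 went from a log2 difference of 0.50 to 0.07 against GelMA and from 0.43 to 0.08 against TCP. Rhebl1, with 1069 bases, went from 0.51 to 0.0087 and from 0.30 to -0.11, and so lay between the controls. Of the 6 genes, 4 were then lower and 1, Tbc1d7, was higher than both controls.

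The amino acid branch brings mTORC1 to the lysosome. Of its 28 tested genes, 13 were lower and 13 higher, and the parts of the branch differed. Among 8 genes of the Rag GTPases and the Ragulator, the lysosomal anchor of mTORC1, 6 were higher and 1 lower, with a median of 0.30. Among 20 genes of the GATOR and KICSTOR complexes and the nutrient sensors, 7 were higher and 12 lower, with a median of -0.17. The median transcript length was 1207 bases in the first part and 3626 in the second, and after correction both medians were -0.03.

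In this branch Lamtor2, a Ragulator subunit, had CPM of 40.7 on TCP, 36.9 on GelMA and 61.5 on GelMA-PSS, and the arginine sensor gene Castor1, listed under its older symbol Gatsl3, had 1.64, 1.91 and 3.76. These were the largest increases against the nearer control. Castor2, listed as Gatsl2, had 36.2, 34.0 and 17.2, and Sesn2, which encodes a leucine sensor, had 18.5, 15.2 and 8.36, which were the largest decreases of the branch by the same measure. Corrected for length and GC content, the log2 differences against GelMA and TCP were 0.17 and 0.10 for Lamtor2 and 0.46 and 0.66 for Castor1. For Castor2 they were -0.34 and -0.60, and for Sesn2 -0.65 and -0.94.

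Of 15 genes of the growth factor and energy branch, 8 were lower, 4 higher and 3 between the controls, and 1 was lower by more than 2-fold. That gene was Prkaa2, the α2 catalytic subunit of the energy sensor AMPK, with CPM of 18.4 on TCP, 15.2 on GelMA and 6.48 on GelMA-PSS. Gsk3b, a kinase that phosphorylates TSC2, had 97.1, 99.5 and 52.3. Stk11, which encodes the AMPK-activating kinase LKB1, had 141, 121 and 187, and Prkag1, a regulatory subunit of AMPK, had 82.8, 80.5 and 109. Subunits of AMPK were thus found on both sides of the controls at this scaling. After correction the log2 differences against GelMA and TCP were -0.63 and -1.04 for Prkaa2 and 0.15 and 0.16 for Prkag1. Those of Gsk3b were -1.27 and -1.16, and those of Stk11 were 0.64 and 0.43.

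Of 16 genes that act below mTORC1, 9 were lower and 6 higher. The substrate Eif4ebp1, a repressor of cap-dependent translation, had CPM of 117 on TCP, 109 on GelMA and 165 on GelMA-PSS. Rps6, the ribosomal protein phosphorylated by S6 kinase, had 730.2, 783 and 1485, but 4 annotated pseudogenes of it are not among the listed symbols, so its counts are uncertain. Larp1, which binds messages of the translation machinery, had 182, 183 and 112, and Ulk1, the autophagy kinase that mTORC1 inhibits, had 88.4, 90.3 and 63.5. The log2 differences of Larp1, with 6617 bases, went from -0.70 to -0.18 against GelMA and from -0.70 to -0.31 against TCP after correction. Corrected values were -0.30 and -0.29 for Ulk1, 0.33 and 0.31 for Eif4ebp1, and 0.34 and 0.54 for Rps6.

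Of 4 genes that act below mTORC2, 2 were lower and 1 higher. Ndrg1, a target of the SGK kinases, had CPM of 113 on TCP, 203 on GelMA and 306 on GelMA-PSS, and its controls lay further apart on the log2 scale than GelMA-PSS and GelMA did. Prkca, a protein kinase C, had 41.5, 48.2 and 33.3, and Sgk3 had 3.56, 3.09 and 2.86. After correction the log2 differences of Prkca, with 8409 bases, changed sign, to 0.09 against GelMA and 0.13 against TCP. Those of Sgk3 were -0.16 and -0.30, and those of Ndrg1 were 0.56 and 1.40.

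**Figure D4:**
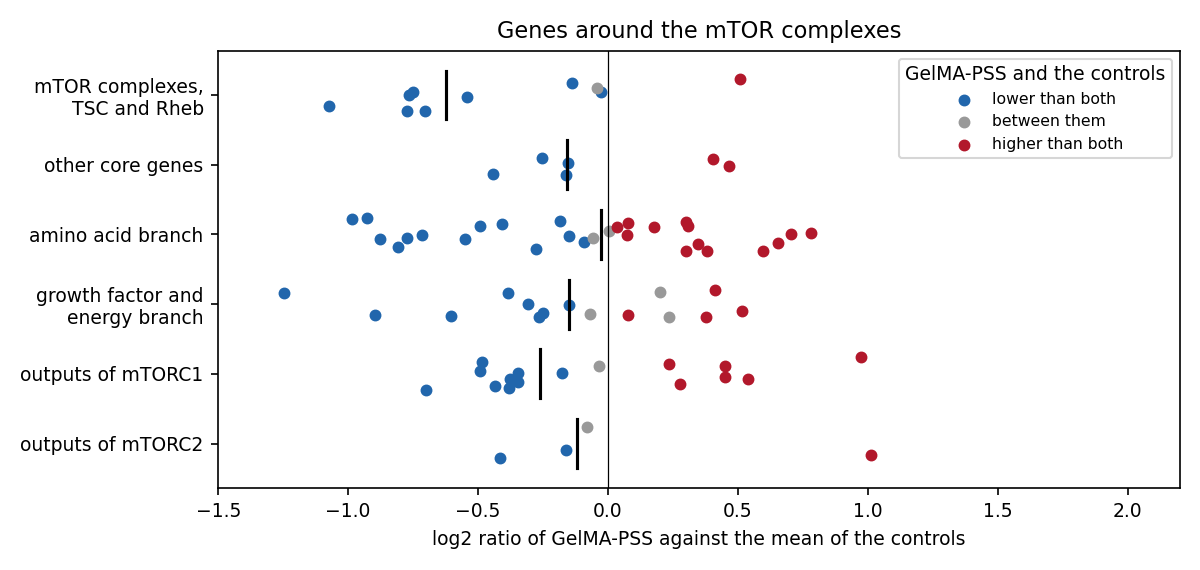
Log2 ratio of GelMA-PSS against the mean of the controls (horizontal axis) for each tested gene of the complexes and of the 5 lists (rows), colored by its place relative to both controls, with a black bar at the median of each row. The bar of the 10 genes lies at -0.62 and those of the lists between -0.26 and -0.03.

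The libraries also differed in markers of myotubes, the fused and differentiated cells. Of 18 myotube markers, 8 were lower on GelMA-PSS than on both controls, 2 were higher and 8 lay between, and their summed CPM was 53750 on TCP, 37592 on GelMA and 37869 on GelMA-PSS. After correction 16 of the 18 were lower than both controls. Of 6 genes listed for the myoblast lineage, 2 were lower and 3 higher, with sums of 2830, 2270 and 2393. Most of each sum was Chrna1, an acetylcholine receptor gene, with 1818, 1343 and 1423, which lay between the controls. Myf5 (13.9, 19.5 and 36.5), Myod1 (94.3, 105 and 119) and Cdh15 (669, 610 and 672) were higher on GelMA-PSS. Pax7 (11.2, 10.5 and 6.01) and Cdh2 (224, 182 and 136) were lower. In bulk RNA, fewer cells of a type and less RNA per cell cannot be told apart. The sums of both lists pool genes that differed in both directions. The 2 higher myotube markers were Mylpf (6926, 4853 and 7158) and Mymx, listed as Gm7325 (226, 175 and 234). Corrected for length and GC content, Mylpf and Mymx were lower than both controls. Among the 8 between the controls as measured were Myog (1100, 895 and 1037) and Des (3299, 2863 and 3154). The 3 myosin heavy chain genes of the list were lower on GelMA-PSS than on both controls by more than 2-fold, with CPM on TCP, GelMA and GelMA-PSS of 10182, 6355 and 3037 for Myh3, 1783, 1065 and 511 for Myh1, and 904, 394 and 193 for Myh8. Their transcripts have 6031, 6081 and 6149 bases, within the range of the 6 long transcripts among the 10 genes. After correction for length and GC content they remained lower than both controls. Their log2 differences against GelMA and TCP were -0.61 and -1.41 for Myh3, -0.62 and -1.48 for Myh1, and -0.56 and -1.88 for Myh8. The corrected differences of GelMA against TCP were -0.77, -0.84 and -1.29.

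Of 14 markers of endothelial, blood, fat, nerve and epithelial cells, 3 passed the limit on level, with a summed CPM over the list of 52.2 on TCP, 65.9 on GelMA and 102 on GelMA-PSS. Most of it was Tubb3, a neuronal tubulin gene, with 47.1, 60.4 and 99.0. The other 2 that passed were lower on GelMA-PSS than on both controls. These were the nerve marker Snap25 (3.62, 3.77 and 1.95) and the blood marker Cd68 (1.53, 1.71 and 1.37). Ptprc, the pan-leukocyte marker, had 0 counts on TCP and GelMA and 4 on GelMA-PSS, and Krt18 had 0 on TCP and GelMA-PSS. Myogenic markers were abundant in all 3 libraries, and the part that the marker levels had in the results of the 10 genes was not tested.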

How the data were processed

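The series holds 3 RNA-seq libraries of c2c12 cells, 1 each for TCP, GelMA and GelMA-PSS, grouped by their labels. The deposited values are whole-number read counts for each gene symbol, which the authors had not normalized. The submitters' processing notes name TopHat, edgeR and the builds mm10 and hg19 without giving roles; the annotation, the counting method and its use of strand are not given in the sources used here. The methods name a TruSeq kit and the labels a SMARTER kit.

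Of 23282 lines, those sharing a symbol (35 symbols) were summed to 23238 symbols. CPM was computed with TMM factors (1.02, 1.04 and 0.943 for TCP, GelMA and GelMA-PSS; edgeR 4.0.16 in R 4.3.3), and genes that reached a CPM of 1 in any library were kept. A count of 3, taken as the floor, equals CPM of 0.0246, 0.0330 and 0.0166. Differences are on log2(CPM + 1), which understates the change of low genes. With 1 library per group no test was made. The ratio intervals are exact conditional binomial intervals at 95% (scipy 1.17.1) for counting error only, and are too narrow if both mates of a pair were counted. Transcript length and GC content came from the transcript with the longest coding sequence in GENCODE vM21 (GRCm38), and were removed from log2 ratios by loess with a span of 0.3 (statsmodels 0.14.6). The calculation was tested on simulated data.

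The 10 genes and all lists were chosen with earlier results of these data known. All 10 genes are named; of each pathway list, the 2 largest increases and 2 largest decreases against the nearer control are named, fewer where fewer exist, and for Mtor the 3 most similar profiles. Single markers were picked for their level or their place relative to the controls, after their values were seen. Alternatives covered scaling, pseudocount, filter, fold threshold, the control used and the correction; coding length in the correction was chosen after seeing the data. Only the RNA-seq part of the study was used here.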

Additional observations from a re-analysis of the deposited data

How the results depend on the processing

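Of the 10 genes, 8 were lower than both controls in the analysis reported, beside 39.3% of all genes. This count ranged from 6, with coding length in the correction, to 9, with total counts, with TPM and against TCP alone. The share of all genes lower was 39.5% with coding length, 49.4% with total counts and 72.0% with TPM. For a single control that share is not given here. The median log2 difference from the mean of the controls, -0.623, became -0.750 with total counts, -1.01 with TPM, -0.629 with a pseudocount of 0.1, -0.598 against GelMA alone, -0.584 against TCP alone, -0.197 with the length and GC correction and -0.228 with coding length in it. The count of genes higher than both controls, 1, became 0 with TPM, 2 with the length and GC correction and 2 against GelMA alone. The share of all genes higher, 45.3%, became 15.5% with TPM and 40.9% with the length and GC correction. The count past 2-fold, 1, became 3 with TPM, 0 with the length and GC correction and 5 with a threshold of 1.5-fold. It stayed 1, Deptor, with coding length in the correction. Over all genes, 153 of 13169 were lower by more than 2-fold, 626 of 12738 with TPM and 81 of 13067 with the correction. Those higher by more than 2-fold numbered 180, 31 and 57. By more than 1.5-fold, 7.18% and 8.08% of all genes were lower and higher. Of the pathway lists, 26 genes higher than both controls became 8 with TPM, beside 45.3% and 15.5% of all genes. Total counts and TPM moved the median of all genes as well, to -0.08 and -0.34; for the other settings the cause was not tested. No paired analysis was possible because each substrate has 1 library, and leaving out a library leaves no comparison with both controls.

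The counting intervals include a ratio of 1 for Mlst8 against both controls and for Akt1s1 and Mapkap1 against GelMA, so those differences were not detectable at this depth. For all 10 genes the spread between cultures was not measured. The GelMA-PSS library has the highest total count and a ratio that follows transcript length across all genes, and substrate and library preparation cannot be told apart in it.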
